A study of Mus musculus with 6 samples.

Results

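Expression of a set of 10 β-catenin dependent genes of pericentral hepatocytes, Glul, Oat, Slc1a2, Rhbg, Lgr5, Axin2, Tbx3, Rnf43, Nkd1 and Znrf3, was examined in liver tumors of WT and Top1mt-deficient mice. The genes were chosen by name, after the KO minus WT differences of this same table were known, so their own genotype differences are given as descriptions without a test. Of the 10 symbols, 9 were among the 30236 rows of the table, and all 9 lay above the filter on low values that 22677 genes passed. Rhbg, an ammonia transporter of the same hepatocytes, was not among the listed symbols and has no value here.

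The data comprise 3 tumors from WT mice (WT1, WT2 and WT3) and 3 from Top1mt -/- mice (KO1, KO2 and KO3), each sequenced as 1 library. Both groups were male C57BL/6 littermates that had received the carcinogen diethylnitrosamine on day 14 after birth and, from week 8, injections of the hepatotoxin carbon tetrachloride for 14 weeks, with tumors of the same size taken at 22 weeks of age. Top1mt encodes the topoisomerase of mitochondria, and the question the study put to these libraries was which transcripts differ between tumors with and without it. The study calls the tumors independent, but the labels do not say whether each came from a separate animal, so the p-values measure only the spread between these tumors. Values are the authors' log2 expression values per gene, which carry no read totals, and the depth of each library is unknown.

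β-Catenin is the transcriptional arm of canonical Wnt signalling. Without a Wnt signal a cytoplasmic complex of Apc, Axin and glycogen synthase kinase marks it for degradation, and with one it accumulates and switches on genes together with TCF factors. In the liver, endothelial cells around the central vein release Wnt ligands and R-spondin, and the hepatocytes next to them express glutamine synthetase and other β-catenin targets. Liver tumors in which β-catenin is mutated to a stable form are commonly recognised by strong glutamine synthetase expression.

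The targeted gene and the libraries as a whole were checked first. Top1mt stood at 7.71, 5.99 and 8.01 in WT1, WT2 and WT3 and at 5.58, 6.41 and 6.32 in KO1, KO2 and KO3, so the library labelled WT2 lay among those labelled KO, against its label. In KO1 the transcript Gm42418 made up 17.7% of the values summed on the linear scale, against 0.387% or less in the other 5 libraries. For the differences of the pericentral genes, values without WT2 or KO1 are given where they turned the sign, ended the overlap or changed the size by over 1.5 times. Hepatocyte markers such as Alb were abundant in every library, with a summed log2 level of 20.85 to 21.53 in WT and 21.10 to 21.63 in KO.

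By genotype, the pericentral genes did not form a uniform pattern. Slc1a2, Oat and Rnf43 were lower in each KO library than in each WT library, while Glul, Lgr5, Axin2, Tbx3, Nkd1 and Znrf3 overlapped. Across libraries, the values of Glul went with those of Axin2 and Nkd1, and the values of Slc1a2 with those of Rnf43. In no library were all 9 genes above their mean over the 6 libraries.

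Slc1a2 (chr2:102658659-102790784, + strand, GRCm38 by GENCODE M21, as for the genes below) encodes a glutamate transporter that brings glutamate into the cells that make glutamine. Its log2 value was 8.89, 8.84 and 9.56 in WT1, WT2 and WT3 and 7.68, 5.56 and 7.49 in KO1, KO2 and KO3. Every KO library lay below every WT library, and KO2 lay well below the other KO libraries. WT libraries averaged 9.10 ± 0.40 (SD, n = 3) and KO libraries 6.91 ± 1.17 (SD, n = 3), a log2 difference of -2.19 (standard error 0.53), or a 4.55-fold higher level in WT. The difference was -1.51 without KO2, and -2.31 without WT2.

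Oat (chr7:132557478-132576398, - strand), ornithine aminotransferase, converts ornithine on the way to glutamate. It stood at 10.16, 9.69 and 10.65 in WT and at 8.85, 8.85 and 9.26 in KO. The groups did not overlap, and the gap from the lowest WT to the highest KO library was narrower than the range within WT. The log2 difference was -1.18 (standard error 0.25), a 2.26-fold higher level in WT, and ran from -1.42 to -0.94 when single libraries were left out.

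Glul (chr1:153899944-153909723, + strand) encodes glutamine synthetase, which fixes ammonia onto glutamate and marks the innermost pericentral hepatocytes. Its log2 values were 11.99, 11.13 and 11.69 in WT1, WT2 and WT3 and 10.17, 11.15 and 11.17 in KO1, KO2 and KO3. WT1 was highest and KO1 lowest, while WT2 lay within the KO range. The means were 11.61 ± 0.44 (SD, n = 3) and 10.83 ± 0.58 (SD, n = 3), with a log2 difference of -0.77 (standard error 0.32). Without KO1 this was -0.44, and without WT2 it was -1.01, and the groups then no longer overlapped. Slc1a2, Oat and Glul act in 1 pathway of nitrogen disposal, and their WT means all exceeded their KO means.

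The stretches of promoter before 4 of these genes are shown because Slc1a2 and Rnf43, and Glul and Axin2, are the pairs whose values went together below. Of the 10 genes 6 had a RefSeq start site among the promoter sequences used here (GRCm38.p6), and each stretch covers the 250 bases before that start, 5′ to 3′. Lgr5, Tbx3, Znrf3 and Rhbg were missing from those sequences, which does not mean that they lack a known start. They are chr2:102706188-102706437 for Slc1a2, chr11:87662837-87663086 for Rnf43, chr1:153899679-153899928 for Glul and chr11:108920099-108920348 for Axin2, all on the + strand. The starts of Slc1a2 and Rnf43 lie within the gene bodies that GENCODE M21 gives. Capitals mark a match to 1 of 4 motifs that TCF factors are known to bind, searched on both strands. The motifs were spelled CTTTGAT in the first form, then CTTTGAA in another form, then CTTTGTT as a further form, and finally CTTTGTA as the last form.
Slc1a2: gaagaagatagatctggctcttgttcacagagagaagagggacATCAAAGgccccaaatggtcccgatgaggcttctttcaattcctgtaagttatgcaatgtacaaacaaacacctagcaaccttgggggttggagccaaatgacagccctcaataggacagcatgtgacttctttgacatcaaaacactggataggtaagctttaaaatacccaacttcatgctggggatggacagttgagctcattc
Rnf43: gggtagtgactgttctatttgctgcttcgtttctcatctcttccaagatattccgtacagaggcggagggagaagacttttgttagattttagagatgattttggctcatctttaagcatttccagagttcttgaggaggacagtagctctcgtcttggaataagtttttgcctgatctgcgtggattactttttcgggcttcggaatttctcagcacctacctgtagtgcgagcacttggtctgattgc
Glul: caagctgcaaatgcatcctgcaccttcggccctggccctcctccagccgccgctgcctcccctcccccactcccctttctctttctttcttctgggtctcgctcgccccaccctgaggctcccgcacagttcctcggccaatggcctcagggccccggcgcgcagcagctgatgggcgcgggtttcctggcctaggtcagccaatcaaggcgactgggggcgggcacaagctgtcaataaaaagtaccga
Axin2: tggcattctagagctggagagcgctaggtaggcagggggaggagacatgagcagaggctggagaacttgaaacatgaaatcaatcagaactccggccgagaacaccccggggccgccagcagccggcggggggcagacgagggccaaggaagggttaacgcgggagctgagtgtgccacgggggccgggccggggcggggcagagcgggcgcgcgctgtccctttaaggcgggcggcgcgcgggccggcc

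The Slc1a2 stretch held a single match, CTTTGAT read on the opposite strand, beginning 207 bases before the start. It was the only match among the 7 windows of the 6 genes, while 14.8% of all 32851 windows held at least 1 of the 4 motifs and 3.21% held CTTTGAT. The match is a run of letters and was not measured for binding, and enhancers farther away were not searched.

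**Figure D1:**
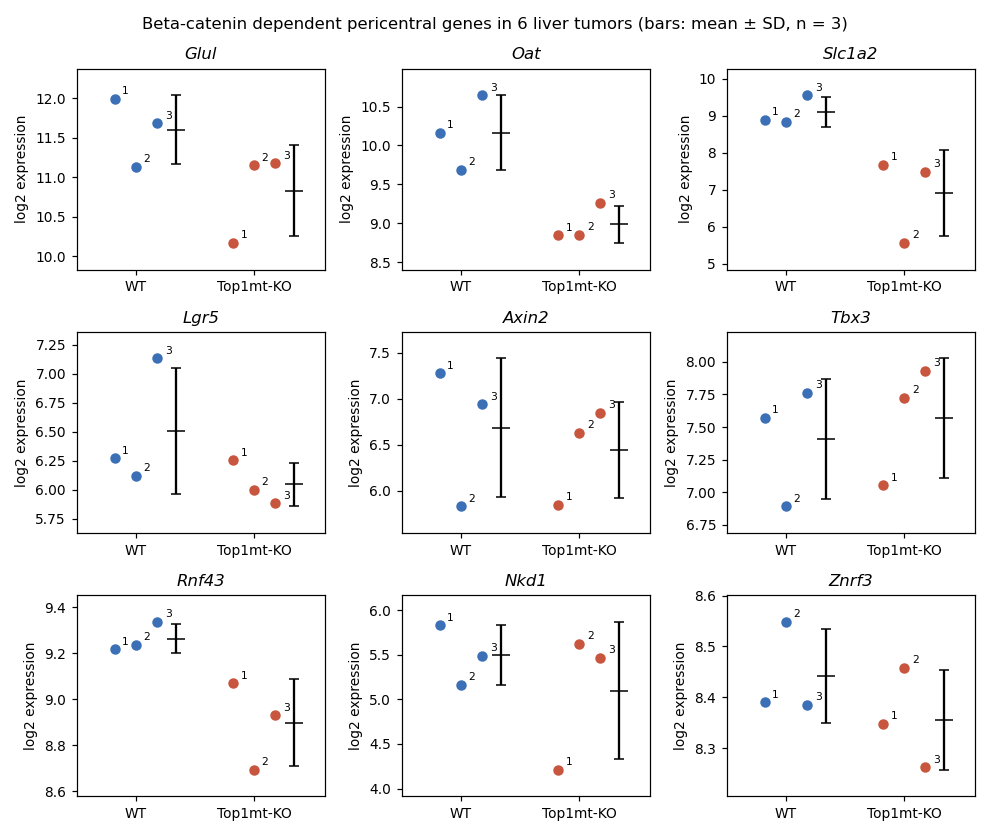
Log2 expression (y axis, a separate scale for each gene) of the 9 listed genes in the WT (blue) and Top1mt-KO (red) tumor libraries, numbered by replicate, with the mean ± SD (n = 3) to the right of each group. Slc1a2, Oat and Rnf43 separate the groups, whereas Axin2 and Tbx3 are lowest in WT2 and KO1.

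The surface regulators of Wnt receptors differed less. Rnf43 and its relative Znrf3 are membrane ubiquitin ligases that remove Frizzled receptors and so restrain the pathway that induces them. Rnf43 (chr11:87662722-87735539, + strand) stood at 9.22, 9.24 and 9.34 in WT and at 9.07, 8.69 and 8.93 in KO. The 3 WT libraries were close together and all above KO, with a log2 difference of -0.37 (standard error 0.14). Znrf3 stood at 8.39, 8.55 and 8.39 in WT and at 8.35, 8.46 and 8.26 in KO. It varied little, with an SD over the 6 libraries of 0.097, at percentile 4.51 of the genes tested, where Slc1a2, with an SD of 1.43, was at percentile 99.1. The log2 difference of Znrf3 was -0.09 (standard error 0.14), and -0.03 without WT2.

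Lgr5, a receptor for R-spondins that protects Frizzled from these ligases, was at 6.27, 6.12 and 7.13 in WT and at 6.25, 6.00 and 5.88 in KO. The groups overlapped, and WT3 alone stood apart, above the other 5 libraries. The log2 difference of -0.46 (standard error 0.32) was -0.15 without WT3. The groups no longer overlapped without WT2, at -0.66, or without KO1, at -0.57.

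The intracellular feedback genes overlapped between the genotypes. Axin2 (chr11:108920349-108950783, + strand), a scaffold of the destruction complex and a common readout of β-catenin activity, was 7.28, 5.83 and 6.94 in WT1, WT2 and WT3 and 5.85, 6.63 and 6.85 in KO1, KO2 and KO3. WT2 and KO1 were low and the other 4 libraries were higher, and without WT2 every KO library lay below every WT library. Its log2 difference was -0.24 (standard error 0.43), with -0.66 without WT2 and 0.06 without either KO1 or WT1. Nkd1, which dampens Wnt signalling at Dishevelled, was 5.83, 5.16 and 5.49 in the WT libraries and 4.21, 5.62 and 5.46 in the KO libraries. KO1 lay below all others, and the log2 difference of -0.40 (standard error 0.44) was 0.05 without it.

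Tbx3, a transcription factor of the T-box family, had the sole difference above 0. It was 7.57, 6.89 and 7.76 in the WT libraries and 7.06, 7.72 and 7.93 in the KO libraries, a log2 difference of 0.16 (standard error 0.31) that was -0.10 without WT2, -0.02 without KO3 and 0.42 without KO1. Its low libraries were WT2 and KO1, as for Axin2.

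Over the 22677 genes tested with limma, 0 (0%) had an adjusted p under 0.05, none of the 9 genes among them, and 985 had an unadjusted p under 0.05, 405 higher and 580 lower in KO. Groups that did not overlap, with KO lower, were found for 3 of the 9 genes and for 4.33% of all genes tested. Because the genes were chosen with this contrast known, nothing is read from that share. Without WT2 the count was 6 of 9 against 9.56% of all genes, and without KO1 it was 4 of 9 against 11.8%. The median log2 difference of the 9 genes was -0.40, against -0.02 over all genes tested, and it was -0.66 without WT2. In bulk tumor tissue, fewer cells of a type and less RNA per cell cannot be told apart.

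Levels can be compared between genes once length is taken into account. On the scale of log2 value per kilobase of exon, from GENCODE M21 gene models, Glul was the highest, at 8.43 to 10.26 over the 6 libraries, followed by Oat at 7.61 to 9.41. These ranges overlapped. Rnf43 came next at 5.98 to 6.62 and Znrf3 at 5.28 to 5.57, and neither range touched the one above it. Tbx3 (4.17 to 5.20), Slc1a2 (1.85 to 5.84), Axin2 (3.37 to 4.81), Nkd1 (2.02 to 3.64) and Lgr5 (2.52 to 3.77) followed by their means. The ranges of Tbx3, Slc1a2 and Axin2 overlapped, as did those of Nkd1 and Lgr5 with each other and with those of Slc1a2 and Axin2, and only Slc1a2 reached into the range of Znrf3. By its mean value Glul exceeded 96.0% of the genes tested, before any correction for length. Opposite-strand genes shared between 1.44% and 3.80% of the exonic bases of Glul, Slc1a2, Axin2 and Tbx3. Log2 values of these partners were at most 4.11, 5.15, 2.20 and -0.12, in that order, each below its gene in every library. On the same strand, Mir8114, at -1.74 or less, shared 2.80% of the exonic bases of Glul. Gm38392, which like Rhbg was not among the listed symbols, shared 61.4% of those of Rhbg, also on the same strand. The paper names a stranded library kit, but the strand setting of the read counting is not given in the sources used here. Reads within the shared bases therefore cannot be told apart.

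Whether any single tumor carried the whole set at a raised level was examined by centring each gene on its mean over the 6 libraries. WT3 had 8 of the 9 genes above the mean, all but Znrf3, and WT1 had 7, all but Lgr5 and Znrf3. KO1 had 0 above, KO3 had 3, and WT2 and KO2 had 4 each. Over all genes tested, between 46.6% and 50.9% of the genes lay above their mean in each library. The mean deviation of the 9 genes was 0.41 in WT1, -0.05 in WT2 and 0.56 in WT3, and -0.49, -0.36 and -0.07 in KO1, KO2 and KO3.

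The upper libraries were not raised in the same genes. WT1 was highest for Glul, Axin2 and Nkd1, at 0.78, 0.71 and 0.53 above the mean, and at -0.005 for Lgr5. WT3 was highest for Slc1a2, Oat, Lgr5 and Rnf43, at 1.55, 1.07, 0.86 and 0.26 above it. KO2, at -2.44, held the lowest Slc1a2 but lay at 0.32 for Nkd1, the second highest of the 6. Levels in tumor-free liver were not analysed here, so a level common to all 6 tumors cannot be called raised or lowered.

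**Figure D2:**
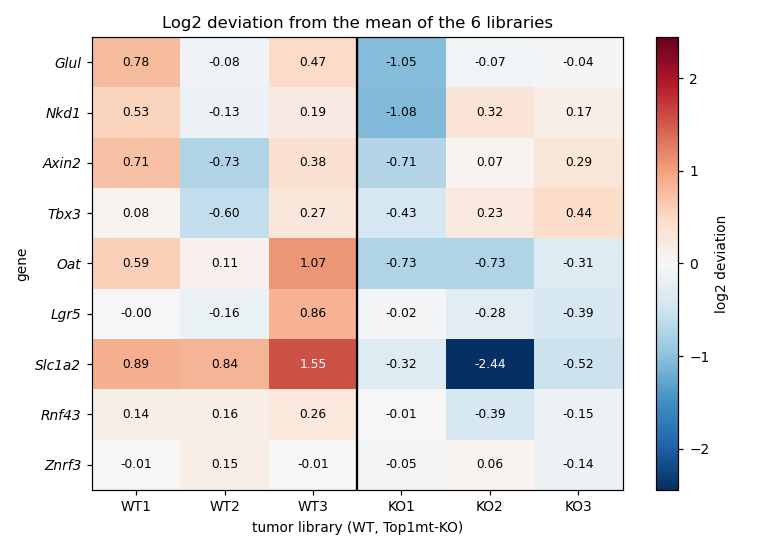
Log2 deviation of each gene (rows) from its own mean over the 6 tumor libraries (columns, WT left of the line and Top1mt-KO right of it), red above and blue below the mean. KO1 lies below the mean for all 9 genes, while WT1 and WT3 are highest in different genes and Slc1a2 in KO2 is the lowest value at -2.44.

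Joint movement was described with Pearson's r over the 6 libraries, which share 2 genotypes, and without p-values. Of 36 pairs 31 had a positive r and 7 had an r above 0.8, and the median was 0.29 (median Spearman's rho 0.37). Of the r between each of the 9 genes and all genes tested, from 2.14% (Znrf3) to 5.41% (Nkd1) lay above 0.8. The medians of these r ran from -0.0005 (Znrf3) to 0.052 (Axin2). With each genotype's mean subtracted, 18 pairs were positive, 8 had an r above 0.8 and the median was 0.033. The highest pair was Slc1a2 with Rnf43, at r = 0.99 and rho = 0.94, and r was 0.96 with genotype means subtracted. Without KO2 and WT3, the libraries farthest from the median of Slc1a2, r was 0.95. In the libraries left, both genes were lower in KO than in WT, so that r also holds the genotype difference. By its rho, Rnf43 ranked the libraries almost as Slc1a2 did, but from 8.69 to 9.34 where Slc1a2 ran from 5.56 to 9.56.

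Glul, Nkd1 and Axin2 made the other group. Glul and Nkd1 had an r of 0.91 (rho 0.83), Glul and Axin2 0.82 (rho 0.94) and Axin2 and Nkd1 0.81 (rho 0.77). With genotype means subtracted these were 0.96, 0.94 and 0.81. They rest in large part on the extreme libraries, since without KO1 and WT1 the r of Glul with Nkd1 was 0.23 and with Axin2 0.55. Over those 4 libraries Glul had a higher r with Lgr5 (0.97), Oat (0.88), Rnf43 (0.63) and Slc1a2 (0.62), so the grouping of Glul with Nkd1 and Axin2 depends on KO1 and WT1. Tbx3 went with Axin2 (r = 0.84, rho = 0.60), yet without WT2 and KO1 this r was -0.57.

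Over all 6 libraries, Slc1a2 had an r of 0.42 with Glul, 0.12 with Axin2 and 0.032 with Nkd1, and -0.38, -0.11 and -0.56 with genotype means subtracted. Oat stood between them, at 0.85 with Slc1a2 and 0.78 with Glul. Znrf3 had its highest r, 0.15, with Rnf43.

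**Figure D3:**
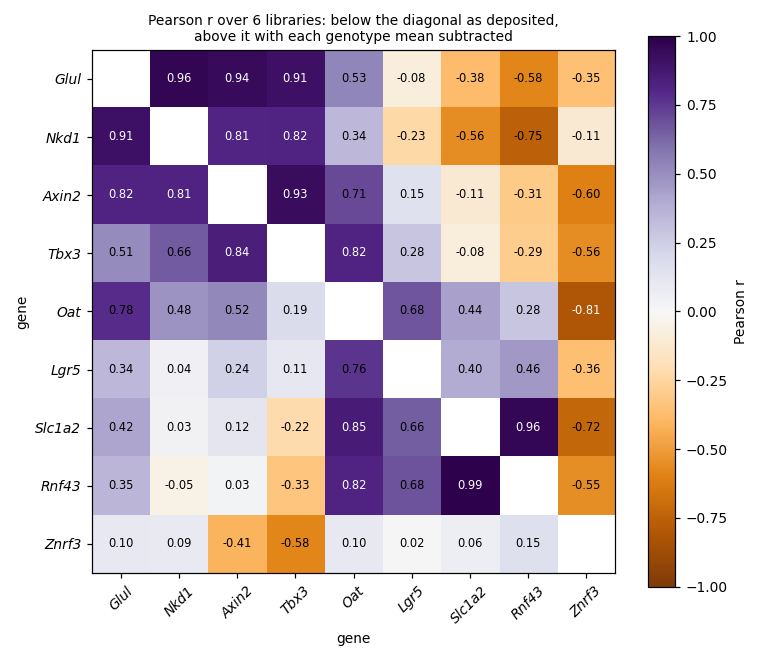
Pearson r between the genes over 6 libraries, below the diagonal from the values as deposited and above it with each genotype's mean subtracted (purple positive, orange negative). Glul, Nkd1, Axin2 and Tbx3 form 1 block above the diagonal, Slc1a2 and Rnf43 another, at 0.96.

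Other β-catenin targets and pericentral genes, from lists written by role, were set beside Glul and Axin2. An r above 0.8 with Glul was found for 5 of 16 other pericentral genes, against 4.19% of all genes tested, and for 1 of 16 periportal genes, those of hepatocytes at the inflow end of the lobule. With genotype means subtracted, these counts were 6 and 3 of 16, against 8.77% of all genes. They were 5 and 4 of 16 for Axin2, against 7.80%, and 4 and 5 of 16 for Nkd1, against 8.86%. Some periportal genes thus also reached such an r with this group, but their median r was lower. With genotype means subtracted it was 0.25, 0.28 and 0.29 with Glul, Axin2 and Nkd1, against 0.73, 0.75 and 0.65 for the 16 pericentral genes. In the values as deposited, markers of other cell types also reached an r above 0.8, though not with each gene of the group. Nkd1 had an r above 0.8 with 3 of 6 stellate cell and fibroblast markers, against 5.41% of all genes, with Pdgfrb at 0.98. Glul had one with 1 of these 6 markers and Axin2 with 0. Axin2 had one with 2 of 4 macrophage markers, against 4.66% of all genes, and Glul and Nkd1 with 0. The 6 hepatocyte markers had a median r of -0.59 with Glul, -0.62 with Axin2 and -0.57 with Nkd1. The part of these cells in the correlations was not tested. With Slc1a2 an r above 0.8 was found for 0 of the 16 pericentral genes, against 2.39% of all genes. That share is too low for a count of 0 among 16 to stand out, so nothing is read from it. Of the genes that follow, Rgn, Notum and Sp5 were chosen after their values were seen, while Cyp2e1 and Lect2 were named whatever their values. Rgn, regucalcin, was 12.97, 11.62 and 12.54 in the WT libraries and 10.94, 11.81 and 12.25 in the KO libraries and ordered the libraries exactly as Glul did (r = 0.96, rho = 1). Cyp2e1, a pericentral cytochrome P450, was 14.52, 13.70 and 13.86 in the WT libraries and 12.52, 13.06 and 13.82 in the KO libraries (r = 0.92, rho = 0.94 with Glul).

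Notum, a secreted enzyme that inactivates Wnt and is itself a target, was 7.13, 5.90 and 6.99 in WT1, WT2 and WT3 and 5.50, 6.14 and 7.02 in KO1, KO2 and KO3. It was low in WT2 and KO1, as Axin2 was (r = 0.93, rho = 0.89). Sp5, another direct target, had an r of 0.91 with Axin2 (rho 0.89). Lect2, a hepatocyte protein also counted as a target, had its highest value, 10.53, in KO1. Its r was -0.17 with Glul, -0.35 with Axin2 and -0.54 with Nkd1, but 0.67 with Slc1a2. Not all targets on the lists therefore shared 1 order of libraries.

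**Figure D4:**
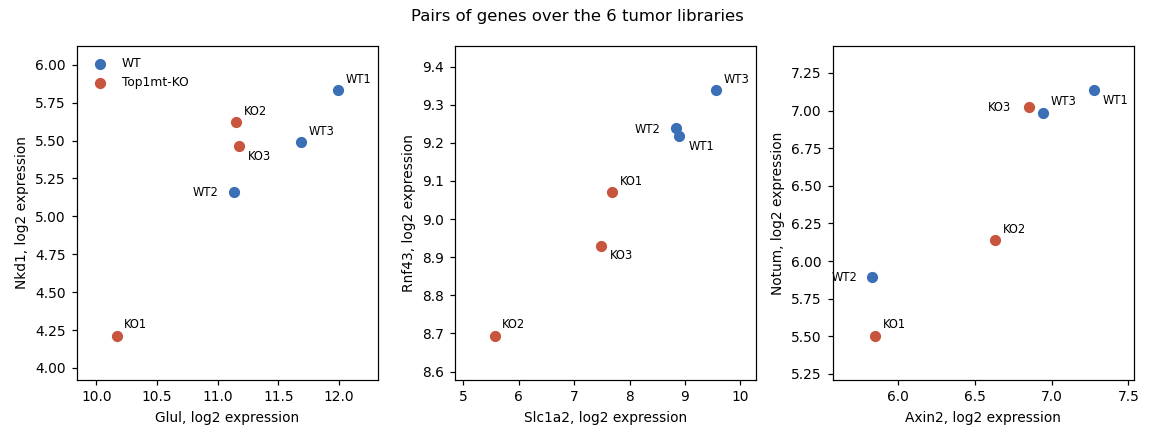
Log2 expression of Nkd1 against Glul, Rnf43 against Slc1a2, and Notum against Axin2 in the WT (blue) and Top1mt-KO (red) libraries. KO1 stands apart at the lower left for Glul and Nkd1, and the Slc1a2 and Rnf43 points fall along 1 line from KO2 to WT3, with KO below WT.

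By the rule for genes of like pattern, the 5 genes with the highest r to Glul over the 6 libraries were Tmem231, Sh3kbp1, Mir3058, Prdm16 and Unc5a, from 0.997 down to 0.991. For Axin2 they were Csf2ra, Nfatc4, Gpha2, Slc4a2 and Dscaml1, from 0.995 to 0.988. With only 6 libraries such values are common, since 271 genes had an r above 0.9 with Glul and 327 with Axin2.

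Upstream components of the pathway were compared between the genotypes by the same limma fit. Among 18 Wnt and R-spondin ligands tested, 0 passed an adjusted p of 0.05, the median log2 difference was -0.04, and 1 had an unadjusted p under 0.05. Many of these ligands had low values, where differences may be understated, and the median was -0.14 with the filter at the median. Wnt2 and Wnt9b, the ligands of central vein endothelium, had log2 differences of -0.24 (standard error 0.37) and 0.12 (standard error 0.37), and that of Wnt2 was 0.062 without WT2. Rspo3, the R-spondin of the same cells, was 6.44, 6.15 and 6.53 in the WT libraries and 5.51, 6.18 and 6.60 in the KO libraries. KO1 was the low library here too, and the log2 difference of -0.28 (standard error 0.32) was 0.01 without it.

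Among 13 receptors and co-receptors 0 passed an adjusted p of 0.05 by limma. Their median log2 difference was -0.06, and 0.33 without KO1. Lrp5, a Wnt co-receptor, was 10.68, 10.56 and 10.42 in the WT libraries and 11.12, 11.05 and 11.22 in the KO libraries. All KO libraries lay above all WT libraries, as for 3.95% of the genes tested, with a log2 difference of 0.57 (standard error 0.13, limma's adjusted p = 0.938). It was the only one of the 13 with an unadjusted p under 0.05, and the difference stayed between 0.51 and 0.64 when single libraries were left out.

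Log2 differences of the signal transducers ran from -0.95 for Lef1 (standard error 0.69) to 1.20 for Pygo1 (standard error 0.76). Both are named for their place at the ends of the lists, and the groups of both overlapped. Lef1 was 2.64, 4.62 and 2.31 in the WT libraries and 2.39, 2.73 and 1.59 in the KO libraries, so WT2 alone stood high. Pygo1 was 5.32, 4.78 and 2.28 in the WT libraries and 5.18, 5.06 and 5.74 in the KO libraries, so WT3 alone stood low. Of 11 destruction complex and cytoplasmic genes and 8 TCF factors and co-activators, 0 passed an adjusted p of 0.05 by limma and 0 had an unadjusted p under 0.05. Ctnnb1, β-catenin itself, was 12.45, 12.49 and 12.28 in the WT libraries and 12.48, 12.37 and 12.47 in the KO libraries, a log2 difference of 0.03 (standard error 0.15). The groups overlapped. Transcript level does not measure the stability of the protein or a mutation of the gene. Apc2, a relative of the complex scaffold Apc, was lower in KO without overlap, with a log2 difference of -0.75 (standard error 0.36) that was -0.48 without KO1, and its groups overlapped after quantile normalization. Tcf7l1, a TCF factor that mostly represses, was higher without overlap, at 0.47 (standard error 0.27).

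Downstream, 11 Wnt inhibitors, 7 other target genes, 16 other pericentral genes and 16 periportal genes again had 0 past an adjusted p of 0.05 by limma, with 0, 1, 2 and 0 at an unadjusted p under 0.05. The other targets had a median log2 difference of -0.36, with 6 of 7 lower in KO, and -0.075 without KO1. The other pericentral genes had one of -0.21, with 10 of 16 lower, and was -0.44 without WT2, -0.14 without KO1 and 0.17 without WT1. The periportal genes had one of 0.09, with 8 of 16 lower, and -0.22 without WT2. Ccnd1, cyclin D1, was the only gene of the other targets whose groups did not overlap, with WT libraries at 10.17, 11.29 and 10.69 and KO libraries from 9.88 to 10.11. Its log2 difference was -0.72 (standard error 0.26, limma's adjusted p = 0.999). Without WT2, its highest library, this was -0.44. Cyp1a2, a pericentral P450 that β-catenin is known to raise, had a log2 difference of -0.47 (standard error 0.62) with overlapping groups, and Lect2 one of -0.47 (standard error 0.33) that was -0.89 without KO1 and -0.21 without KO2. That of Cyp1a2 was -1.16 without WT2 and 0.23 without WT1. Pck1, a gluconeogenic enzyme, was lower in KO without overlap among the periportal genes, at -0.50 (standard error 0.25).

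**Figure D5:**
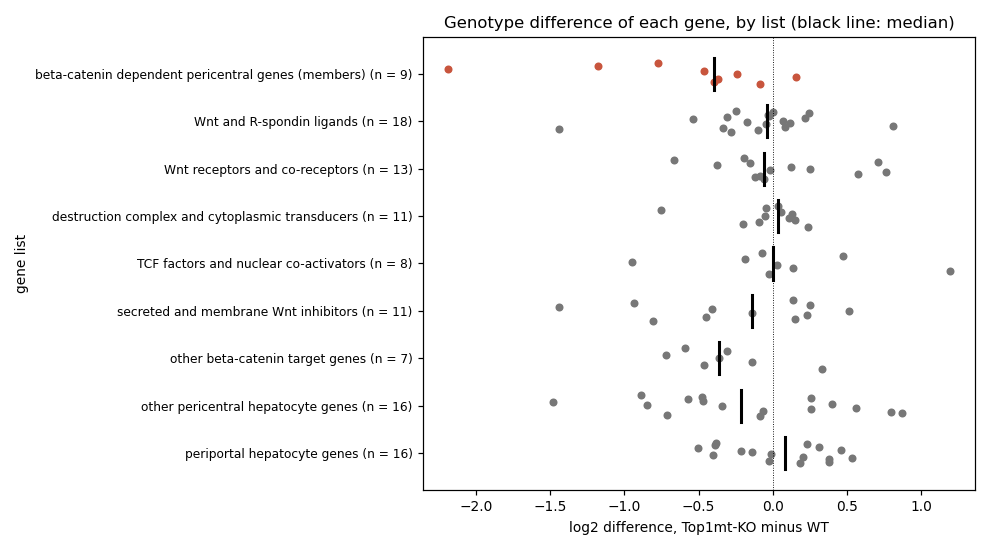
Log2 difference, Top1mt-KO minus WT, of each tested gene (points) by list, with the median of each list as a black line. The 9 pericentral β-catenin genes (red) have a median of -0.40, and the ligands, receptors, transducers and TCF factors have medians within 0.06 of 0. The ligand median is -0.14 with the filter at the median, and the receptor median is 0.33 without KO1.

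Markers of other cell types were set beside these values. Over all genes tested, groups did not overlap for 4.33% with KO lower and for 3.95% with KO higher. The 6 stellate cell and fibroblast markers had a summed log2 level of 11.79 to 13.45 in WT and 11.04 to 13.16 in KO, with the highest level in WT1 and the lowest in KO1, the same extreme libraries as for Glul. The 5 bile duct markers had a median log2 difference of -1.19, and of -0.64 without WT3 and -0.79 without KO1. The list was split in direction. Krt19, a keratin of bile duct cells, was 6.11, 4.75 and 6.93 in the WT libraries and 4.38 or less in the KO libraries. It was lower in KO without overlap, and Epcam was too, at -1.19 (standard error 0.56). For Epcam the groups barely separated, with WT2 at 5.223 and KO3 at 5.216. Krt7 was lower with overlapping groups, at -2.20 (standard error 0.73). Sox9 and Spp1 were slightly higher in KO, at 0.15 and 0.05, with overlapping groups. The summed level of the bile duct list, most of it from Spp1, was 11.58 to 12.62 in WT and 11.70 to 12.58 in KO. The 6 endothelial markers had summed levels of 12.69 to 12.93 in WT and 12.80 to 13.11 in KO, with Cdh5 and Pecam1 higher in KO without overlap, at 0.40 and 0.16. The 4 macrophage, 5 lymphocyte and 4 proliferation markers had median differences of 0.015, -0.015 and 0.23, and of these only Cd3e, a T cell gene, had groups that did not overlap, at -1.03. None of these 3 medians kept its sign when single libraries were left out, and the proliferation median ran from -0.11 without WT1 to 0.49 without WT3. Ttr was the hepatocyte marker without overlap, 0.58 higher in KO on the log2 scale, and its groups overlapped after quantile normalization, as did those of Cd3e. The part of these cell types in the levels of the pericentral genes was not tested.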

How the data were processed

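The 6 libraries hold RNA of 3 WT and 3 Top1mt-deficient tumors, with groups and replicate numbers taken from the sample titles. Values were deposited by the authors on a log2 scale, 1 row for each symbol, from -2.24 to 22.00, normalized between libraries by a transform that is not named. They resemble a regularized log, which draws weakly expressed genes toward their mean and understates their differences. The submitters' processing notes name Trimmomatic 0.36, STAR 2.5.1, GRCm38, Subread and DESeq2, while the paper names BWA and Mm 8. Counts cannot be recovered, so depth is unknown. Unnamed columns with leftover cells were not used, nor were any further columns of per-sample values (0).

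The KO minus WT contrast was fitted in limma 3.58.1 under R 4.3.3 (lmFit, eBayes with trend, Benjamini-Hochberg adjustment over 22677 genes whose mean lay above the lowest 25%, threshold 0.05), and the procedure was tested on simulated data. Members and lists were chosen with earlier results of these data known. Named genes are the 10 members, Top1mt, up to 4 genes per list without overlap and with the largest differences, 7 Wnt pathway and pericentral genes named whatever their values, and the 5 genes most like Glul and Axin2. Outside this rule, Rgn, Notum, Sp5, Pdgfrb, Lef1, Pygo1, Krt7, Sox9 and Spp1 were named after their values were seen. The alternatives were no trend, quantile normalization, no filter or a filter at the median, a replicate block, leaving out each library, and for correlations Spearman's rho and subtraction of genotype means. Lists hold symbols as written, and 1 hepatocyte symbol, Tf, was not listed. Promoter sequences are from RefSeq (GRCm38.p6) and gene models from GENCODE M21, and no coordinates come from the deposited table. Levels per kilobase subtract the log2 of the merged exon length.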

Additional observations from a re-analysis of the deposited data

How the results depend on the processing

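The count of genes past an adjusted p of 0.05 was 0, but 4 with no filter on low values and from 0 to 1 with single libraries left out, the 1 without KO1. The count at an unadjusted p under 0.05 was 590 with the filter at the median, where fewer genes were tested. The replicate block gave 0 genes past the adjusted threshold and 912 at an unadjusted p under 0.05, and it changed no call. Deviations of libraries with equal numbers correlated at -0.12, -0.076 and 0.052, so a shared number is only a name here.

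Of 9 genes in the set, 6 kept the sign of their difference in all alternatives, and Axin2, Tbx3 and Nkd1 did not. The median difference of the ligands was 0.035 with quantile normalization, -0.14 with the filter at the median, and -0.11 to -0.032 with single libraries left out. That of the inhibitors was -0.81 with the filter at the median, and that of the hepatocyte markers -0.17 with quantile normalization. With single libraries left out the receptors ran from -0.10 to 0.33, the other targets from -0.57 to -0.075, the periportal genes from -0.22 to 0.16 and the bile duct markers from -1.51 to -0.64. The median r between the genes was 0.033 with genotype means subtracted and 0.17 to 0.53 with single libraries left out, highest without KO2. The other pericentral genes had a median of 0.17 without WT1. The sign turned for Ctnnb1 (-0.014 with quantile normalization), and with single libraries left out Ctnnb1 ran from -0.029 to 0.077, Cyp1a2 from -1.16 to 0.23 (without WT1), Wnt2 from -0.49 to 0.062 (without WT2), Wnt9b from -0.036 (without WT1) to 0.29 and Rspo3 from -0.53 to 0.012 (without KO1). The causes were not tested.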
